A study of Mus musculus with 9 samples.

Results

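Marker genes of lung epithelium, fast skeletal muscle and fat were followed on each array of a study of the infarcted mouse heart, to show which tissue pieces held RNA of a tissue other than myocardium. Of the 32 marker genes on the list 31 had a row with their symbol among the 19505 genes analysed. They were 11 lung genes, 9 fast muscle genes, 9 genes of white fat or of both kinds of fat, and 2 genes of brown fat. The remaining gene, Cfd, was not analysed here. The hearts came from SCID mice, a strain without working T and B lymphocytes, labelled female and 80 to 100 days old, that all received an infarct by ligation of the left anterior descending coronary artery. They were injected with exosomes precipitated from stem-cell-derived cardiomyocytes (iCM-Ex), with the cardiomyocytes themselves (iCM), or with saline. After 4 weeks the tissue bordering the infarct was found under a microscope and cut out, and its RNA was measured on 3 Clariom S arrays per group, which the labels call biological replicates. The sources used here do not give the species of the stem cells or say whether animals were pooled.

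Lung, the muscle of the chest wall and the fat around the pericardium lie next to the heart. Alveolar type 2 cells make surfactant, the lipid and protein film that keeps alveoli open, alveolar type 1 cells form the gas exchange surface, and club cells line the small airways. Fast muscle fibres use myosin and troponin forms that ventricular cardiomyocytes use little. White adipocytes store lipid and release hormones, while brown adipocytes burn lipid for heat through the uncoupling protein UCP1. Many genes of lipid handling are also active in cardiomyocytes and capillary endothelium, so that a fat list holds genes of differing specificity.

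The start regions of 4 of these genes are shown as examples of the sequence in front of markers that stood out together on an array: Sftpa1 for lung, Myh4 for fast muscle, Plin1 for fat and Ucp1 for brown fat. They run from 250 bases before to 50 bases after the RefSeq start in build GRCm38.p6, and capitals mark CTCAAG (a core letter string bound by the lung factor NKX2-1) in Sftpa1, CAGCTG (an E-box of muscle factors) in Myh4, TTGCNNAA (a C/EBP string) in Plin1, and TATAAA, on either strand.
Sftpa1, chr14:41131538-41131837, plus strand: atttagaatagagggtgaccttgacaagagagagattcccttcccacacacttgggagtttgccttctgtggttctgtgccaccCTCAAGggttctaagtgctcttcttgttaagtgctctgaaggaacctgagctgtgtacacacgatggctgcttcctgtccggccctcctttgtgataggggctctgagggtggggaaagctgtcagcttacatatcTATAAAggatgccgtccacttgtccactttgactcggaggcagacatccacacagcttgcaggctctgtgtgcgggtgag
Myh4, chr11:67237562-67237861, plus strand: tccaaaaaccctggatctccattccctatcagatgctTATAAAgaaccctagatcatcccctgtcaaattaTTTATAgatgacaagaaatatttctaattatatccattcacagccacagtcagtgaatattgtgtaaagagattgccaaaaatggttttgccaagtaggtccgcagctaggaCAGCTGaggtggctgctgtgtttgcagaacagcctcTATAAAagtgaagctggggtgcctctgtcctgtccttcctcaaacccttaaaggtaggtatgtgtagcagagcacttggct
Plin1, chr7:79732727-79733026, minus strand: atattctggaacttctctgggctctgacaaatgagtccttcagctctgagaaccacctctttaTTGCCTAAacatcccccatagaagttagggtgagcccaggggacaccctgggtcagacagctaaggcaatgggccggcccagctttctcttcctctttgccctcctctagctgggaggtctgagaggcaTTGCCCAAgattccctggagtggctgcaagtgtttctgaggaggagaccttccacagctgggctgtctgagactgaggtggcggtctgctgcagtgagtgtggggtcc
Ucp1, chr8:83290098-83290397, plus strand: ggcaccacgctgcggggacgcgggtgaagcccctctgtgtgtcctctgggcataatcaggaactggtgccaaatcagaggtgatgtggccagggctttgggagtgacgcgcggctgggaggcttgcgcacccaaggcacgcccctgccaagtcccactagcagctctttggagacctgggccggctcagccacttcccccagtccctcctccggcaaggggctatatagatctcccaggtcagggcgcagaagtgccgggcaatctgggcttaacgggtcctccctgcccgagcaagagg
Neither TTGCNNAA nor TATAAA was found in the Ucp1 window. The table held start regions for 22 of the 31 genes. CTCAAG was found for 2 of 6 lung genes and in 15.9% of all 32851 start regions, CAGCTG for 4 of 8 fast muscle genes and in 16.3% of all. TTGCNNAA was found for 2 of 8 fat genes and in 10.8% of all. TATAAA was found for 5 of 22 genes and in 13.62% of all. These matches describe letters, not bound sites.

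The values are log2 signals, so that a difference of 1 is a change by a factor of 2. The median of the negative control rows, a guide to background, was 4.76 to 4.95 on the iCM-Ex arrays, 5.11 to 5.56 on the iCM arrays and 5.07 to 5.48 on the saline arrays. Control separation, the median positive minus the median negative control, was 3.63 to 4.01 for iCM-Ex, 2.47 to 3.21 for iCM and 3.26 to 3.56 for saline, and it was lowest on iCM replicate 2. Of 16 cardiomyocyte genes 14 to 15 lay above the 95th percentile of the negative controls on every array, and their mean was 15.93 to 16.09 in iCM-Ex, 15.42 to 16.90 in iCM and 15.81 to 16.63 in saline. RNA of heart muscle was therefore present on all 9 arrays. The mean was lowest, at 15.42, on iCM replicate 2. These genes do not show whether a piece came from the border of the infarct.

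The arrays did not all match the label female. Of the Y-linked genes looked for, 3 were measured and are named here after their values were seen. Eif2s3y, a translation factor gene, had log2 signals of 4.05, 11.37 and 11.46 on iCM-Ex replicates 1, 2 and 3, of 3.48, 14.59 and 3.66 on iCM replicates 1, 2 and 3, and of 3.46, 3.43 and 10.63 on the saline arrays. Uty, a histone demethylase family gene, was at 9.51 to 10.25 on the same 4 arrays and at 4.30 to 4.98 on the other 5, and Kdm5d, another gene of that kind, was at 6.18 to 7.0 against 3.58 to 4.94. Y-linked signal was thus present in every group, on iCM-Ex replicates 2 and 3, iCM replicate 2 and saline replicate 3, and at background on iCM replicate 1, the array with the highest lung signal. Its source was not tested.

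**Figure D1:**
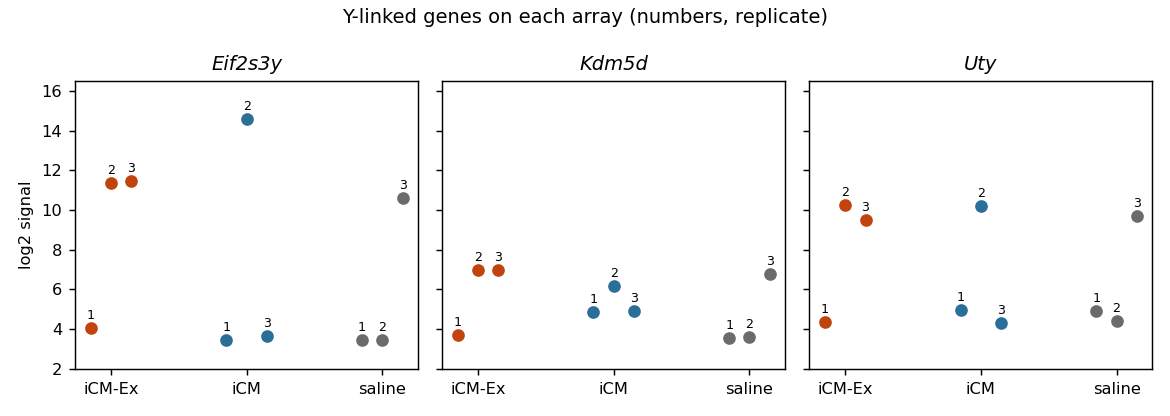
Log2 signal of 3 Y-linked genes (vertical axes) on the 9 arrays by group, each point 1 array numbered by replicate. Points of iCM-Ex replicates 2 and 3, iCM replicate 2 and saline replicate 3 lie above the other 5, for Eif2s3y at 10.63 to 14.59 against 3.43 to 4.05.

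For each gene and array, the excess over the median of the other 8 arrays was taken, and an excess of 3 or more, a factor of 8, was counted. On iCM-Ex replicate 3, 5 of the 31 markers had such an excess, on iCM replicate 1, 11, and on iCM replicate 2, 17. On the other 6 arrays, among them all 3 saline arrays, 0 of 31 did. Over all 19505 genes the share with that excess was 0.251% on iCM-Ex replicate 3, 0.272% on iCM replicate 1 and 0.42% on iCM replicate 2, and on the other 6 it was 0.374% and 0.159% on iCM-Ex replicates 1 and 2, 0.282% on iCM replicate 3, and 0.236%, 0.0769% and 0.0923% on the saline arrays. The markers were chosen with this pattern known, so the counts describe the arrays and are no test.

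**Figure D2:**
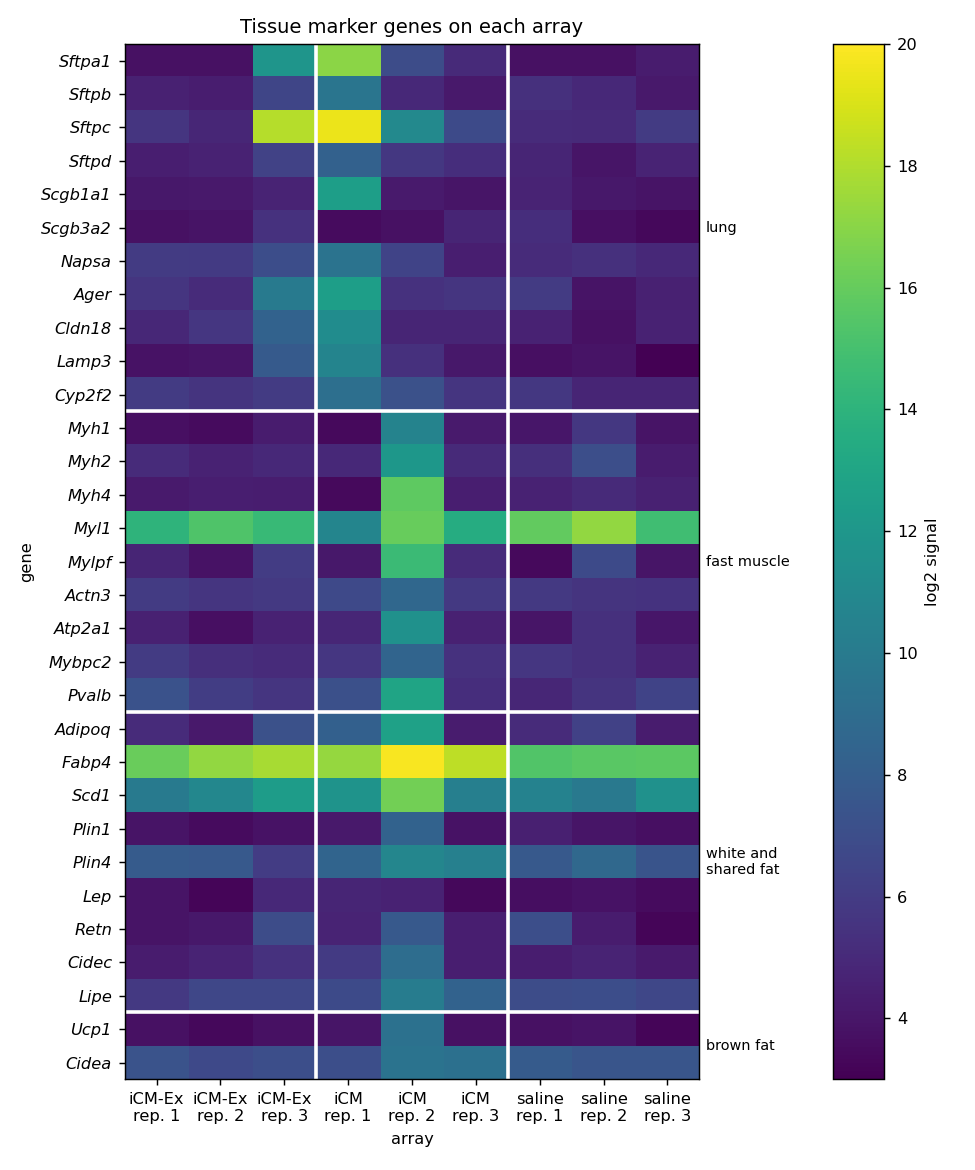
Log2 signal (colour) of the 31 marker genes (rows, grouped as lung, fast muscle, white and shared fat, brown fat) on the 9 arrays (columns, by group). Lung genes are bright on iCM-Ex replicate 3 and iCM replicate 1, and muscle and fat genes on iCM replicate 2; Myl1, Fabp4 and Scd1 are bright on every array.

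Lung epithelial genes were high on 1 iCM-Ex array and 1 iCM array and near background on the saline arrays. Their mean was 8.37 on iCM-Ex replicate 3 and 11.24 on iCM replicate 1. It was 5.98 on iCM replicate 2 and 4.29 to 4.95 on the other 6 arrays. Of the 11 genes, 5 had an excess of 3 or more on iCM-Ex replicate 3, 10 on iCM replicate 1 and 1, Sftpc, on iCM replicate 2. Above the 95th percentile of the negative controls lay 4, 9 and 1 of them, and 0 on each of the other 6 arrays.

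Genes of alveolar type 2 cells led. Sftpc, which encodes a small hydrophobic surfactant protein made by these cells, had log2 signals of 5.59, 4.82 and 18.09 on iCM-Ex replicates 1, 2 and 3, of 19.53, 11.02 and 6.83 on iCM replicates 1, 2 and 3, and of 5.08, 5.0 and 5.96 on the saline arrays. Every iCM array lay above every saline array, while 2 of the 3 iCM-Ex arrays lay within or below the saline range. Sftpa1, a collectin of the surfactant that binds microbes and whose start region is shown above, was at 3.78, 3.75 and 11.89 on the iCM-Ex arrays, at 17.02, 6.97 and 5.05 on the 3 iCM arrays and at 3.78, 3.75 and 4.27 on the saline arrays. The 3 iCM arrays again did not overlap saline, but iCM replicate 3 and the saline arrays were under their median negative control. The array order iCM replicate 1, iCM-Ex replicate 3, iCM replicate 2 was that of Sftpc. Sftpb, which encodes the other hydrophobic surfactant protein, was at 6.53 on iCM-Ex replicate 3 and 9.63 on iCM replicate 1, against 4.15 to 5.37 on the other 7 arrays. Sftpd, the second collectin, was at 6.36 on iCM-Ex replicate 3 and 8.28 on iCM replicate 1, below the 95th percentile of negative controls on each. Napsa, the protease that trims surfactant protein precursors, was at 7.05 on iCM-Ex replicate 3 and 9.48 on iCM replicate 1. Lamp3, of the lamellar bodies that store surfactant, was at 7.80 on iCM-Ex replicate 3 and 10.70 on iCM replicate 1, with 5.34 on iCM replicate 2 and at most 4.10 on the other 6. On iCM replicate 1 each of these surfactant genes was above iCM-Ex replicate 3.

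Ager and Cldn18 were high on the same 2 arrays, and the airway genes on 1 of them or on neither. Ager, the receptor RAGE of type 1 cells, had log2 signals of 5.62, 5.06 and 9.95 on the iCM-Ex arrays, of 12.56, 5.42 and 5.6 on iCM replicates 1, 2 and 3, and of 5.95, 3.90 and 4.57 on the saline arrays. Cldn18, a tight junction gene of alveolar epithelium, was at 8.35 on iCM-Ex replicate 3 and 11.29 on iCM replicate 1. Scgb1a1, which encodes the main secreted protein of club cells, was at 12.50 on iCM replicate 1, and at 3.92 to 4.68 on every other array. The lung-marked iCM-Ex replicate 3 was therefore at background for Scgb1a1, at 4.67, while it was 3.61 to 12.31 above the median of the other arrays for Sftpc, Sftpa1, Ager, Lamp3 and Cldn18. Cyp2f2, a cytochrome P450 of club cells, was at 5.96 on iCM-Ex replicate 3, 9.21 on iCM replicate 1 and 7.20 on iCM replicate 2, against 4.76 to 5.72 in saline. Scgb3a2, a second secretoglobin of the airway, was at 3.37 to 5.44 on all 9 arrays and followed none of them.

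**Figure D3:**
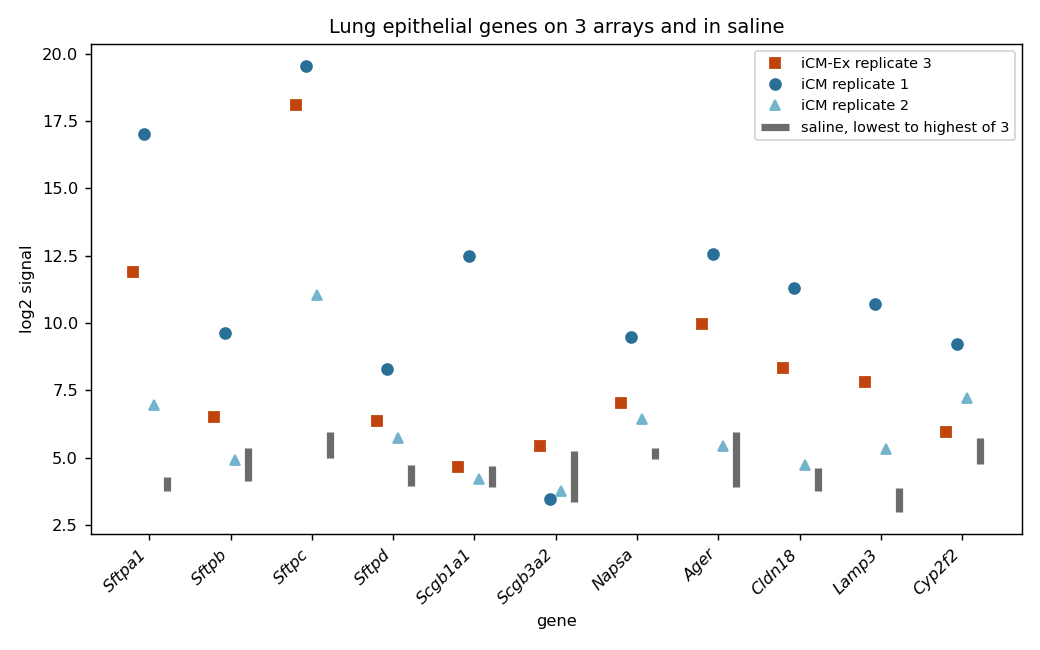
Log2 signal (vertical axis) of the 11 lung genes on iCM-Ex replicate 3, iCM replicate 1 and iCM replicate 2, beside the range of the 3 saline arrays (grey bars). Sftpc lies at 18.09, 19.53 and 11.02 on these arrays against 5.0 to 5.96 in saline, and Scgb1a1 is high on iCM replicate 1 alone, at 12.50.

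Of the 11 lung genes 4 were above the 95th percentile of the negative controls on both lung-marked arrays. For these the signal on iCM replicate 1 was above that on iCM-Ex replicate 3 by 1.43 for Sftpc, by 2.61 for Ager, by 2.94 for Cldn18 and by 5.13 for Sftpa1. Sftpc lay close to the highest value of any row on iCM replicate 1, 19.88, so its distance may be a lower bound. The other 7 genes were under that percentile on iCM-Ex replicate 3, so no distance is given for them.

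Further genes of the same cells were drawn from a list of 10 alveolar type 2 genes that are not among the markers. On iCM replicate 1, 4 of the 10 had an excess of 3 or more and on iCM-Ex replicate 3, 2 did. Slc34a2, the phosphate transporter of type 2 cells, was at 8.15 on iCM-Ex replicate 3 and 11.34 on iCM replicate 1, and Cxcl15, a lung chemokine, at 9.37 on iCM-Ex replicate 3 and 9.29 on iCM replicate 1, each against at most 5.37 on the other arrays. Nkx2-1, the transcription factor gene of lung epithelium, was at 4.02 on iCM-Ex replicate 3 and 5.04 on iCM replicate 1, both below the median negative control. Of 7 further type 1 genes 1 reached the excess on iCM replicate 1, Akap5, and 0 on iCM-Ex replicate 3, where their mean was 8.68 against 8.66 on saline replicate 2. Among further airway genes these were Cyp2b10 (8.87) and the cilia-associated Sec14l3 (8.24) on iCM replicate 1, and Cbr2 (11.01) on iCM-Ex replicate 3. Sec14l3 lay under the 95th percentile of the negative controls on iCM replicate 1, 8.80, and Cyp2b10 just above it. Cbr2 was also at 9.82 on iCM-Ex replicate 2 and 10.14 on iCM replicate 1.

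The genes with the largest excess outside the markers were partly of lung and partly not. On iCM replicate 1, 42 genes outside the list had an excess of 3 or more. The 10 largest among named genes were Inmt, Slc34a2, Mal2, Iigp1, Cxcl15, Gprc5a, Igtp, Irgm1, Cyp2b10 and Cdo1. Inmt, a methyltransferase gene abundant in lung, led at 12.67, with 7.86 on iCM-Ex replicate 3 and 3.89 to 5.57 elsewhere. Iigp1, Igtp and Irgm1 are interferon-inducible GTPase genes, at 13.74, 11.97 and 13.87 there, and at 13.60, 12.84 and 13.63 on iCM replicate 3, where the lung mean was 4.95. On iCM-Ex replicate 3 there were 44 such genes, led by Eif2s3y, Fcer1g, Cxcl15, Wfdc17, Ccl8, Uty, Rps21, Cxcl13, Ly86 and Cbr2. Fcer1g and Ly86, genes of myeloid cells, were also high on iCM-Ex replicate 2 (13.90 and 14.04) and saline replicate 3 (each 13.61), which had no lung signal.

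Fast muscle genes stood out on iCM replicate 2 and on no other array. Their mean was 12.30 there, against 5.82 to 6.18 on the iCM-Ex arrays, 5.68 and 5.94 on the other iCM arrays and 5.78 to 7.09 on the saline arrays. Of the 9 genes 7 had an excess of 3 or more. The exceptions were Actn3, with an excess of 2.89, just under that limit, and Myl1. This array also had Y-linked signal and the lowest control separation, 2.47, and their part in its values was not tested.

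Myosin heavy chains of fast fibres were high together. Myh4, the gene of the fastest fibre type, 2B, whose start region is shown above, had log2 signals of 4.25, 4.46 and 4.35 on the iCM-Ex arrays, of 3.41, 15.77 and 4.45 on iCM replicates 1, 2 and 3, and of 4.66, 5.03 and 4.59 on the saline arrays. The 8 other arrays lay below their own median negative control. Myh2, of type 2A fibres, was at 11.97 on iCM replicate 2, against 4.31 to 7.09 on the other 8, and Myh1, of type 2X fibres, at 10.59 against 3.46 to 5.75. These 3 genes have closely similar sequences, and so has the perinatal myosin gene Myh8, so cross-hybridisation between them was not tested. Saline replicate 2 was next highest for each of them, at 7.09 for Myh2 and 5.75 for Myh1.

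Other parts of the fast fibre showed the same array. Mylpf, the phosphorylatable light chain of fast myosin, was at 14.60 on iCM replicate 2, against 3.44 to 6.83 on the other 8 arrays. Atp2a1, the calcium pump of fast fibres, was at 11.59 against 3.73 to 5.38, and Pvalb, the calcium buffer parvalbumin, at 12.94 against 4.79 to 7.28. Mybpc2, a fast myosin-binding protein, was at 8.48 against 4.60 to 5.94, and Actn3, the Z-disc actinin of fast fibres, at 8.70 against 5.49 to 6.78, both under the 95th percentile of negative controls, 9.67, on that array. Myl1, the alkali light chain of fast muscle, did not follow. It was at 14.07, 15.32 and 14.48 on the iCM-Ex arrays, at 10.76, 16.04 and 13.51 on the 3 iCM arrays and at 15.91, 17.23 and 14.78 on the saline arrays, so that the highest array was saline replicate 2 and the lowest iCM replicate 1.

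Of 16 further fast muscle genes 8 reached the excess on iCM replicate 2 and 0 on iCM-Ex replicate 3 or iCM replicate 1. Among the 8, Myoz1 (7.40), Ampd1 (6.97) and Mybpc1 (8.35) were under the 95th percentile of negative controls on that array, 9.67. Eno3 and Pgam2 of the same list lay below the median of the other arrays there (-2.61 and -1.395). Myh8 led all genes on iCM replicate 2, at 17.47 against 3.47 to 7.01 on the other arrays. The fast troponin genes Tnni2 and Tnnc2 were at 14.72 and 9.72. The creatine kinase gene Ckm, which heart also expresses, was at 11.70 against 10.31 to 13.01, and the slow muscle list had 0 of 9 at the excess. The myogenic factor list had 0 of 8.

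The fat genes also stood out on iCM replicate 2. The 9 genes of white or shared fat had a mean of 11.08 there, against 6.75 to 7.92 on the iCM-Ex arrays, 8.0 and 7.54 on the other iCM arrays and 6.69 to 7.25 on the saline arrays. With an excess of 3 or more were 8 of the 9, Plin4 just inside at 3.0 and Lep outside at 0.92. On iCM replicate 1 this held for 1 gene, Adipoq (3.12), at a signal under the 95th percentile of the negative controls, and on the other 7 arrays for 0.

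Genes most restricted to adipocytes were near background on most other arrays. Adipoq, which encodes the hormone adiponectin, had log2 signals of 5.06, 4.13 and 7.21 on the iCM-Ex arrays, of 8.19, 12.75 and 4.27 on iCM replicates 1, 2 and 3, and of 5.08, 6.26 and 4.32 on the saline arrays. The next highest arrays after iCM replicate 2 were those with lung signal, iCM replicate 1 and iCM-Ex replicate 3. On each of these Adipoq was under the 95th percentile of the negative controls, 8.80 and 8.15. Plin1, the lipid droplet coat protein of adipocytes, was at 8.36 on iCM replicate 2, and below the median negative control on the other 8, at 3.50 to 4.51. Cidec, which fuses lipid droplets, was at 9.08 against 4.25 to 5.86. Both were under the 95th percentile of the negative controls on iCM replicate 2, 9.67, so that among genes restricted to fat Adipoq alone was above it. Retn, the hormone resistin, was at 7.74 on iCM replicate 2, but also at 7.06 on saline replicate 1 and 6.98 on iCM-Ex replicate 3. Lep, the leptin gene, lay below the median negative control on all but 1 array, at 3.21 to 4.96, and on iCM replicate 2 it was at 4.66.

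Scd1 and Fabp4 were well above background on every array. Scd1, the desaturase that makes monounsaturated fatty acids, was at 16.36 on iCM replicate 2, against 9.89 to 12.42 on the other 8. Fabp4, whose protein carries fatty acids in adipocytes and capillary endothelial cells, had log2 signals of 16.10, 17.23 and 17.75 on the iCM-Ex arrays, of 17.29, 19.86 and 18.33 on iCM replicates 1, 2 and 3, and of 15.35, 15.66 and 15.72 on the saline arrays. All 6 treated arrays lay above all 3 saline arrays. The signal on iCM replicate 2 equalled, to 2 decimals, the highest value of that array, so it may be a lower bound.

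Some lipid genes were also high on iCM replicate 3, where Adipoq was not. Plin4, a perilipin of fat and striated muscle, was at 7.90, 7.75 and 6.04 on the iCM-Ex arrays, at 8.47, 10.83 and 10.39 on the 3 iCM arrays and at 7.73, 8.76 and 7.39 on the saline arrays. Lipe, the hormone-sensitive lipase, was at 5.81, 6.64 and 6.59 on the iCM-Ex arrays, at 6.85, 10.12 and 8.36 on the 3 iCM arrays and at 6.97, 7.03 and 6.62 on the saline arrays. On iCM replicates 2 and 3 both genes lay above all iCM-Ex and saline arrays, while Adipoq was at 12.75 on replicate 2 and 4.27 on replicate 3. The lipase genes Lpl and Pnpla2, active in heart as in fat, were at 16.65 and 16.57 on iCM replicate 3, the highest of the 9 arrays, where the cardiomyocyte mean was also highest, at 16.90.

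The 2 brown fat genes parted. Ucp1, the heat-producing uncoupling protein found in brown and beige adipocytes, whose start region is shown above, had log2 signals of 3.77, 3.39 and 3.76 on the iCM-Ex arrays, of 3.96, 9.31 and 3.78 on iCM replicates 1, 2 and 3, and of 3.78, 3.87 and 3.22 on the saline arrays. It lay below the median negative control on 8 arrays and 5.35 above the next highest array on iCM replicate 2, but under the 95th percentile of the negative controls there. Cidea, a lipid droplet protein of brown fat that heart also expresses, was at 7.35, 6.74 and 7.09 on the iCM-Ex arrays, at 7.09, 9.46 and 9.26 on the 3 iCM arrays and at 7.85, 7.48 and 7.46 on the saline arrays. Cidea was thus about as high on iCM replicate 3 as on replicate 2, while Ucp1 was high on replicate 2 alone.

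**Figure D4:**
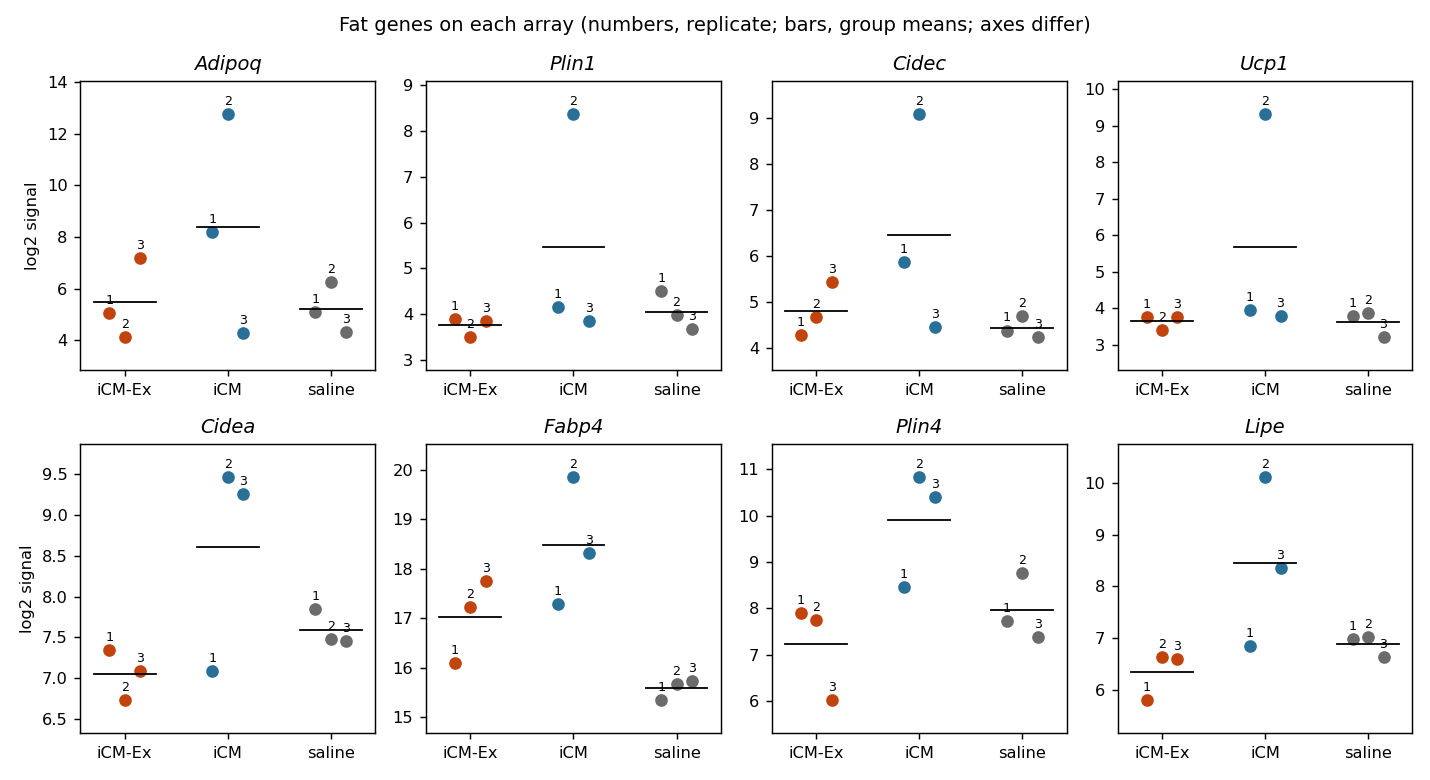
Log2 signal (vertical axes, scales differ) of 8 fat genes by group, each point 1 array numbered by replicate and each bar a group mean. Adipoq, Plin1, Cidec and Ucp1 are highest on iCM replicate 2 alone, while Cidea and Plin4 are about as high on iCM replicate 3 (9.26 against 9.46 and 10.39 against 10.83).

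Further fat genes were counted on iCM replicate 2 by kind. Of 16 genes shared by both kinds of fat 6 reached the excess, led by Fasn, the fatty acid synthase, at 12.12 against 4.97 to 7.05 on the other arrays, and Thrsp, an inducer of lipogenesis, at 13.84. Of 9 further white fat genes and 14 further brown fat genes 0 did. The white fat list mean was 8.54 there, against 8.03 to 9.19 on the other arrays, with Nrip1, a nuclear receptor corepressor, and Agt above the median of those arrays (excess 2.10 and 2.02) and Dpt, an extracellular matrix gene, Tcf21, a mesenchymal transcription factor gene, and Sncg, a synuclein gene, below it (-2.94, -2.23 and -3.03). Dpt and Tcf21 are also on the fibroblast list. Of the brown fat list, Elovl3, an elongase of brown fat, came nearest at 5.61 (excess 2.10), the thyroid hormone deiodinase gene Dio2 was at 6.38 against 6.33 to 8.61, and Zic1, a developmental marker of classical brown fat, at 4.15 against 3.68 to 4.76.

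The 10 genes with the largest excess on iCM replicate 2 outside the markers were Myh8, Eif2s3y, Car3, Tnni2, Tnnt3, Hp, Cyp2e1, Fasn, Fkbp5 and Neb. Car3, a carbonic anhydrase abundant in adipocytes and slow muscle, was at 17.00, with 10.97 on iCM-Ex replicate 3 and 9.19 on iCM replicate 1 and 4.48 to 7.76 on the other arrays. Neb encodes the giant thin-filament protein nebulin of skeletal muscle, and was at 11.50 against 4.32 to 6.16. Cyp2e1, a cytochrome P450 of liver and fat, was at 12.10, and it was the 1 of 8 liver genes that reached the excess. In all 65 genes outside the markers had an excess of 3 or more there, and 15 of these were on the marker lists.

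**Figure D5:**
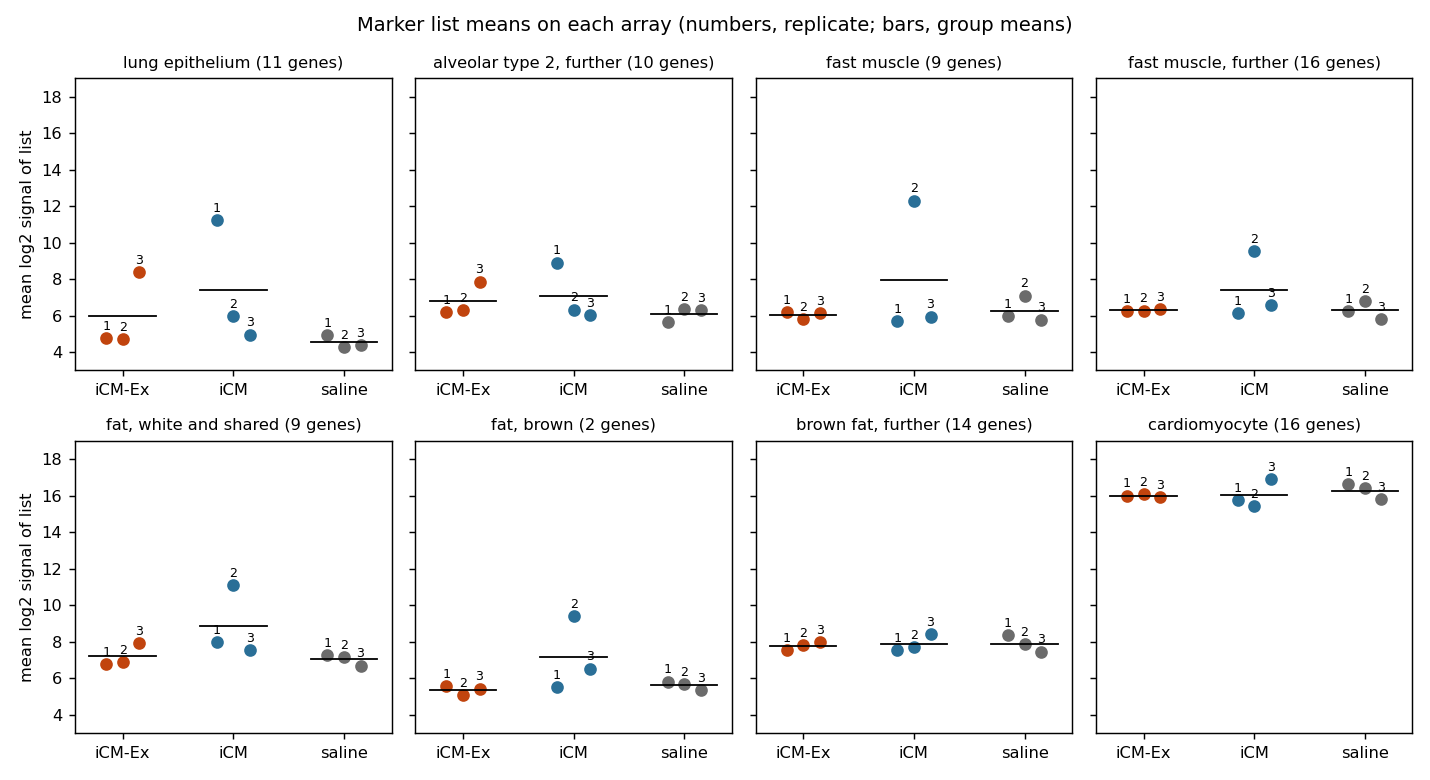
Mean log2 signal of 8 marker lists (vertical axes, 1 scale) by group, each point 1 array numbered by replicate and each bar a group mean. The lung list is high on iCM-Ex replicate 3 (8.37) and iCM replicate 1 (11.24), the fast muscle list on iCM replicate 2 (12.30), and the cardiomyocyte list lies between 15.42 and 16.90 on all arrays.

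Markers of other tissues near the heart were looked at on the same 3 arrays. No gene of the mesothelium and pericardium, peripheral nerve, cartilage and bone, or stratified epithelium lists had an excess of 3 or more on any of the 9 arrays. Of the 8 measured thymus and lymph node genes 1, the chemokine gene Ccl21a, reached it on iCM-Ex replicate 3 at 16.33, with 16.30 on iCM-Ex replicate 2. The gene Tmem100 of lung capillaries reached it on iCM replicate 1, at 9.83 against 6.10 to 7.03. In such mixed pieces fewer cells of a type and less RNA per cell cannot be told apart.

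As groups, the markers were then compared across all 9 arrays with limma, adjusted by Benjamini-Hochberg over 19505 genes. In iCM against saline 1 of the 31 markers passed an adjusted p of 0.05, Fabp4, where 3.67% of all genes passed, 1.34% higher and 2.33% lower. Fabp4 rose by 2.91 ± 0.61 (log2, SE) to 18.49 ± 1.29 in iCM, against 15.58 ± 0.20 in saline (SD, n = 3 each; limma adjusted p = 0.0306). At an unadjusted limma p under 0.05 were 7 of the 31, 6 higher and 1 lower, that is 22.6% against 20.5% of all genes. The median difference of the 31 was 2.02, against 0.08 over all genes. Sftpc averaged 12.46 ± 6.47 in iCM and 5.35 ± 0.53 in saline, a difference of 7.11 ± 3.58 with a limma adjusted p of 0.295, and Myh4 averaged 7.88 ± 6.86 in iCM and 4.76 ± 0.24 in saline with a limma adjusted p of 0.518 (n = 3 each). The spread between the iCM arrays was near or above these differences in size.

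Without overlap between the 3 iCM and the 3 saline arrays were 6 of the 31 markers, all higher in iCM: Sftpa1, Sftpc, Sftpd, Cldn18, Lamp3 and Fabp4. Among all genes 13.8% were higher and 10.2% lower without overlap. For Sftpa1, Sftpd, Cldn18 and Lamp3 the lowest iCM array stood at 5.05, 5.24, 4.73 and 4.10. The highest saline array stood at 4.27, 4.75, 4.6 and 3.88. Each of these values was under the negative control median of its array, so for these genes the lack of overlap rests on background values.

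The call of Fabp4 was lost in 6 of the 9 fits that left out 1 array, while its difference was 2.80 to 2.99 in 5 of these and 2.23 without iCM replicate 2. Its limma adjusted p was 0.0695, 0.0988 and 0.0667 without saline replicates 1, 2 and 3, 0.0759 and 0.0602 without iCM replicates 2 and 3, and 0.0523 without iCM-Ex replicate 2. Without the 3 arrays that carried lung, muscle or fat markers, an alternative added after the data were seen, the difference was 2.75. That fit had 1 array in the iCM group, assumed to vary like the others, so it cannot show whether the call holds. Without iCM replicate 1, 4 markers passed, Fabp4, Cidea, Lipe and Plin4, the last 3 with differences of 1.77 ± 0.31, 2.37 ± 0.51 and 2.65 ± 0.60 (limma adjusted p = 0.0195, 0.0369 and 0.0451), where 4.12% of all genes passed. Without iCM replicate 3 the marker that passed was Cyp2f2 (3.13 ± 0.56, limma adjusted p = 0.0296), where 2.55% of all genes passed. Over the 9 such fits the share of all genes that passed was 0.646% to 4.12%, lowest without saline replicate 2.

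In iCM-Ex against saline 0 of the 31 markers passed by limma, where 0.349% of all genes did, 0.22% higher and 0.128% lower, and leaving out 1 array at a time gave 0% to 0.836%. At an unadjusted p under 0.05 was 1 marker, 3.23% against 15.2% of all genes. This was Fabp4, with 17.02 ± 0.84 in iCM-Ex and 15.58 ± 0.20 in saline (n = 3 each; limma adjusted p = 0.292). Sftpc averaged 9.50 ± 7.45 in iCM-Ex and 5.35 ± 0.53 in saline (n = 3 each; limma adjusted p = 0.639). The median difference of the markers was 0.25, against 0.04 over all genes. For the fast muscle list it was -0.14 and for the lung list 1.16. Without overlap 3 markers were higher in iCM-Ex, Cldn18, Napsa and Fabp4, against 12.2% of all genes. Lower without overlap were 2, Cidea and Myh4, against 9.53%. Myh4 was below the median negative control on every array of both groups, so its order is a rank among background values. For Cldn18 the lowest iCM-Ex array, at 4.86, and the highest saline array, at 4.6, were each under that median too.

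In iCM-Ex against iCM 0 of the 31 passed by limma, where 1.07% of all genes did, 0.795% higher and 0.272% lower, and leaving out 1 array at a time gave 0% to 2.06%. At an unadjusted p under 0.05 were 5 markers, all lower in iCM-Ex, 16.1% against 14.5% of all genes. This comparison and those with saline share arrays. The smallest limma adjusted p was that of Plin4, 0.0941, with 7.23 ± 1.03 in iCM-Ex and 9.90 ± 1.26 in iCM (n = 3 each). Lipe averaged 6.35 ± 0.47 in iCM-Ex and 8.44 ± 1.63 in iCM (n = 3 each; limma adjusted p = 0.161). For Plin4, Lipe and Ucp1 all iCM-Ex arrays lay below all iCM arrays, as for 10% of all genes, and for 0 of 31 above them, as for 10.2%. For Ucp1 every array but iCM replicate 2 was below its median negative control, so that order is a rank among background values. Without iCM replicate 1 Cidea, Lipe and Plin4 passed, with differences of -2.30, -2.89 and -3.38 (limma adjusted p = 0.015, 0.0329 and 0.0344), where 1.93% of all genes passed.

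Fibroblast and macrophage genes had values of their own in these groups. The mean of 8 fibroblast genes was 15.59 to 16.32 on the iCM-Ex arrays, 13.17 to 15.64 on the iCM arrays and 14.50 to 16.30 on the saline arrays. That of 7 macrophage genes was 11.49 to 11.81 on the iCM-Ex arrays, 8.53 to 10.58 on the iCM arrays and 8.24 to 11.76 on the saline arrays. Group means were lower in iCM than in saline for 8 of 8 fibroblast genes (median -1.30) and 5 of 7 macrophage genes (median -0.28). Of all genes 55.5% were higher there. In iCM-Ex against iCM 8 of 8 fibroblast genes were higher, 4 without overlap, and 6 of 7 macrophage genes, 5 without overlap. Of all genes 46.1% were higher in that comparison, and 10.2% were higher without overlap. None of these fibroblast and macrophage genes passed by limma in any of the 3 comparisons. At an unadjusted limma p under 0.05 were 0 fibroblast and 0 macrophage genes in iCM against saline, against 20.5% of all genes. In iCM-Ex against saline they were 0 and 2, against 15.2% of all genes. In iCM-Ex against iCM they were 4 and 5, against 14.5%. The part of these lists in the marker values was not tested.

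Of the 200 measured genes of the further lists 5 passed in iCM against saline, 2.5% against 3.67% of all genes. In iCM-Ex against saline 1 of the 200 passed, or 0.5% against 0.349% of all genes. In iCM-Ex against iCM 3 passed, or 1.5% against 1.07% of all genes. In iCM against saline the carbonic anhydrase gene Car4 and the slow troponin gene Tnnt1 rose by 3.96 and 2.57 (limma adjusted p = 0.00325 and 0.00854), and passed in all 9 fits that left out 1 array. Without the 3 arrays that carried foreign markers their differences were 4.625 and 2.45. These rest on 1 array in the iCM group, so that fit cannot show whether the calls hold. Car4, which marks a class of lung capillary and is also expressed in heart vessels, was at 10.92 to 11.96 on the 3 iCM arrays and at 7.03 to 7.52 on the saline arrays, highest on iCM replicate 3, where lung genes were at background. The macrophage lectin gene Chil3, the skeletal calcium channel gene Cacna1s and the angiotensinogen gene Agt rose by 2.26, 1.61 and 1.59 (limma adjusted p = 0.03, 0.0409 and 0.0382). Their calls were lost in 5, 7 and 7 of the 9 fits, at a limma adjusted p of up to 0.0988, 0.118 and 0.119. Chil3 was highest on the lung-marked iCM replicate 1, at 7.82, with 6.27 and 5.97 on iCM replicates 2 and 3 and 4.18 to 4.65 on the saline arrays. Tnnt1 rose in iCM-Ex against saline by 2.39 (limma adjusted p = 0.0374), a call lost in 6 of the 9 fits (up to 0.202) and with a replicate block (0.0816). In iCM-Ex against iCM, Car4 fell by 3.01, and the natriuretic peptide gene Nppb and the tubulin gene Tubb4b rose by 3.19 and 1.92 (limma adjusted p = 0.0146, 0.0126 and 0.0386). Car4 and Nppb lost the call without iCM-Ex replicate 2 or 3, and Tubb4b in 5 of the 9 fits. With a replicate block the limma adjusted p was 0.0527 for Car4 and 0.0777 for Tubb4b.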

How the data were processed

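The authors deposited log2 signals of 9 arrays, a value for each probe set. Expression Console (Affymetrix) is named in the submitters' processing notes, and 5.5 µg of cDNA was labelled per the labels' protocols. How background was corrected and arrays were normalised is not given in the sources used here; that the scale is log2 follows from the range of the values. Of 28846 rows 6640 were controls and 19572 had a gene symbol in the platform annotation. The brightest row was kept per gene, which left 19505 genes, and all 31 markers had 1 row. No further normalisation or filter was applied.

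One limma 3.58.1 fit (R 4.3.3) with a mean per group over 9 arrays gave the contrasts, adjusted by Benjamini-Hochberg, with no replicate block. The code was tested on simulated data. The markers and the 27 cell type lists were chosen with earlier results of these data known. Named outside the markers were the 10 genes with the largest excess on each array where at least 2 markers of a list had an excess of 3, up to 4 genes per further list on such arrays, and genes of these lists past the threshold; predicted genes, clones and olfactory or vomeronasal receptors were counted only. Nkx2-1, Ckm, Myoz1, Ampd1, Mybpc1, Eno3, Pgam2, Lpl, Dio2, Dpt, Tcf21, Sncg and the Y-linked genes Eif2s3y, Uty and Kdm5d were named after their values were seen. The number of arrays limits precision, and nothing states whether the hearts were processed apart. P-values measure only the spread between these arrays.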

Additional observations from a re-analysis of the deposited data

How the results depend on the processing

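The number of markers past the limma threshold in iCM against saline was 1 in the reported fit and under quantile normalisation, genes above the median, the mean of rows, all rows but controls, a trend with robust moderation, and Y-linked signal as a term (added after the data were seen). In these fits 3.25% to 7.76% of all genes passed. With only the 2 groups compared 0 markers passed (Fabp4 limma adjusted p = 0.0627), where 1.43% of all genes did. Leaving out 1 array at a time gave 0 to 4 markers, with 0.646% to 4.12% of all genes. Without the 3 arrays that carried foreign markers 1 array was left in the iCM group, and the Fabp4 difference was 2.75. The count of markers in iCM-Ex against saline was 0 under every alternative run, where 0% to 0.836% of all genes passed. In iCM-Ex against iCM it was 0 except without iCM replicate 1 (range 0 to 3), and 0% to 3.61% of all genes passed. With a replicate block the counts were 1, 0 and 0, and 338, 0 and 18 genes of all were called, against 716, 68 and 208 without it. Leaving out 1 array at a time gave 126 to 803, 0 to 163 and 0 to 401 genes of all. Same-numbered arrays correlated at -0.257 to 0.068 in their deviations from the group means. Arrays of different number were not compared, so these values do not decide whether same-numbered arrays were processed together. Under quantile normalisation the list means on the marked arrays moved by less than the spread of the other arrays, as for fast muscle on iCM replicate 2 (6.70 against 6.35 above the median of the other arrays). Signals under the 95th percentile of negative controls (8.12 to 9.67) limit the size of changes in dim markers.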
